A study of Mus musculus with 6 samples.

Results

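The 9 genes described here, *Clec4f*, *Vsig4*, *Cd5l*, *Adgre1*, *Marco*, *C1qa*, *C1qb*, *C1qc* and *Csf1r*, are markers of Kupffer cells and of macrophages in general. They were taken by gene name from the tables of gene expression, in which 21528 genes were listed, and all 9 were present in each library. *Clec4f*, *Vsig4* and *Cd5l* were treated as 3 markers of resident Kupffer cells and the other 6 as general macrophage markers. The question was whether their transcripts differed between livers of WT mice and livers of TRIM24C52/55A knockin mice. In the knockin, cysteines 52 and 55 in the RING domain of TRIM24, the part that carries its E3 ubiquitin ligase activity, were replaced with alanine on a C57BL/6 background (C57Bl/6J in the study's methods). The knockin mice were homozygous and the WT mice were their littermates. Both groups had 3 mice, 5 months old, and both were fed a high-fat diet (HFD, with 60% of calories from fat) for 3 months. RNA came from whole liver, with 1 library per mouse, and no cells were sorted. Where 3 values are given for a group, they are those of its replicates 1 to 3, in that order. Whole liver is mostly hepatocytes, and each value is therefore a mixture over all of its cell types.

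Kupffer cells are the macrophages that live in the sinusoids of the liver. They take up particles, lipoproteins and ageing red cells from portal blood, and they depend on signalling through CSF1R. In mice, CLEC4F, VSIG4 and, in part, CD5L mark the resident population, and monocytes that enter the liver acquire these proteins late. ADGRE1, MARCO, the C1q chains and CSF1R are shared with macrophages of other tissues. In bulk tissue, fewer cells of a type and less RNA per cell cannot be told apart.

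For each library the authors deposited FPKM, in which the fragments assigned to a gene are scaled to transcript length and to the sequenced total, so levels can be set beside each other between genes. FPKM keep no read total. The value of 1 fragment per kilobase was estimated as the median of FPKM times transcript length in kilobases. Only genes with 1 annotated transcript and a product between 0.045 and 0.08 entered. This gave 0.0597 to 0.0629 FPKM and a relative depth of 0.971 to 1.02 times that of WT replicate 1. The window was fixed beforehand and limits the result, so these values cannot show whether depth differed. Under that estimate *Marco*, the lowest of the 9, had 53.4 fragments in its lowest library and 278 in its highest. *Clec4f* had 1658 to 2392. Library sums of FPKM were 644619 to 676791. Hepatocyte genes held the highest levels, with *Apoa1*, a secreted apolipoprotein, at 5556 to 8183 FPKM.

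Promoter sequence was taken for 6 of the 9 genes, all but *Adgre1*, *C1qa* and *Csf1r* (RefSeq, GRCm38.p6, the 250 bases before the start of transcription). Myeloid promoters often carry sites for PU.1, an ETS family factor needed for macrophage development, whose core can be written GGAAGT. On either strand these letters occurred in 4 of the 6 promoters, those of *Clec4f*, *Vsig4*, *C1qb* and *C1qc*, and in 19.74% of 32851 mouse promoters of the same length. The matches began 33, 63, 53 and 195 bases before the RefSeq start, respectively. For *Clec4f* and *C1qc* that start lies inside the deposited interval of the gene, so part of the 250 bases overlaps the gene. The longer form GAGGAAGT, which contains the shorter one, was found in *C1qc* (2.44% of promoters). None of the 6 held GTGGGAA, the site of RBPJ (5.42% of promoters), CACGTG, the E-box of MITF and TFEB (6.02%), or TTGCGCAA, a C/EBP site (0.16%). A match describes letters only. The promoters of *Vsig4*, *C1qb* and *Cd5l* are printed 5′ to 3′ on the strand of the gene, because they show a resident marker and a C1q chain with a match and a resident marker without one. They lie at chrX:96293439-96293688 (minus strand), chr4:136886201-136886450 (minus strand) and chr3:87357631-87357880 (plus strand), and capitals mark GGAAGT or its reverse complement.
Vsig4: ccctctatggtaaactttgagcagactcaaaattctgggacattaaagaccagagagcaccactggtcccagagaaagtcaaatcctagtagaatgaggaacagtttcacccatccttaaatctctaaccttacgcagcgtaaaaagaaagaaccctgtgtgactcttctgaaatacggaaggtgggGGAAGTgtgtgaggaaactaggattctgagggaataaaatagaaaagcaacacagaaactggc
C1qb: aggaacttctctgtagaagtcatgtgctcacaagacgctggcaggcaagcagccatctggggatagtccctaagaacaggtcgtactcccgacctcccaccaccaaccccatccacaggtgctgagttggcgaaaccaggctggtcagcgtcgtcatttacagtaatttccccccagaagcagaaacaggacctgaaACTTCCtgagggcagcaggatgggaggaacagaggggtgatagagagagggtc
Cd5l: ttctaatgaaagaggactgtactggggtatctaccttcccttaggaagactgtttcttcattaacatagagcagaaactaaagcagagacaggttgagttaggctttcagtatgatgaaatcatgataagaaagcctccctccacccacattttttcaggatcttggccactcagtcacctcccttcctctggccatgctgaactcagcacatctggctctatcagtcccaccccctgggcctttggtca

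All 9 genes were lower on average in TRIM24C52/55A livers, by 8.27% (*Marco*) to 23.7% (*Cd5l*) of the mean FPKM, and none passed the test. Their log2 fold changes were -0.38 to -0.15 with a median of -0.31 on log2(FPKM + 1), a scale that understates the change of low genes. The median of all 12225 genes tested (those with a mean of at least 0.5 FPKM) was -0.08, and 65.5% of those genes were lower in TRIM24C52/55A livers. Called lower, at an adjusted p under 0.05 (limma, with Benjamini-Hochberg correction across the genes tested), were 0 of the 9 markers against 6.09% of all genes. Before adjustment *Cd5l* alone was under 0.05, 1 of 9 against 19.0% of all genes. Every TRIM24C52/55A library was below every WT library for 0 of the 9, against 22.5% of all genes. A shared pattern lay within the TRIM24C52/55A group instead. Replicates 1 and 3 of that group were below every WT library for 9 of 9 markers (36.2% of all genes), whereas replicate 2 lay within the WT range or above it.

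**Figure D1:**
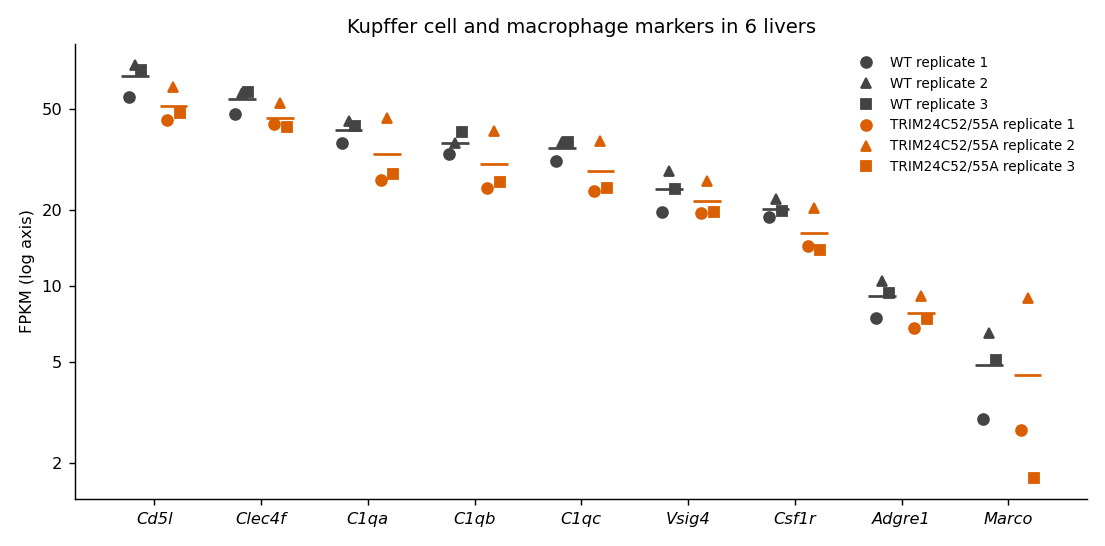
FPKM of the 9 markers on a log axis in 3 WT (grey) and 3 TRIM24C52/55A (orange) livers, 1 point per library with its replicate number as the shape, and a line at each group mean. For every marker the circle and square of TRIM24C52/55A (replicates 1 and 3) lie below all WT points, and the triangle (replicate 2) does not.

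*Clec4f* encodes a lectin of Kupffer cells that binds galactose-type sugars, and in mice it is the most specific of the resident markers. It lies on chromosome 6 from 83644542 to 83656187, on the minus strand (coordinates of the files, which match GENCODE M21 on GRCm38). *Clec4f* was at 47.8, 57.8 and 58.2 FPKM in the WT livers and at 43.8, 52.6 and 42.2 FPKM in the TRIM24C52/55A livers. TRIM24C52/55A replicate 2 lay between WT replicates 1 and 2, and the groups overlapped. The means were 54.6 ± 5.92 and 46.2 ± 5.59 FPKM (SD, n = 3 each), 15.4% lower. Its log2 fold change was -0.24, with a 95% interval from -0.50 to 0.02 (standard error 0.11, adjusted p = 0.258, limma).

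*Vsig4* encodes a complement receptor of the immunoglobulin superfamily, with which Kupffer cells capture C3b-coated particles from blood. It is X-linked, from 96247203 to 96293438. In the WT livers *Vsig4* had 19.6, 28.4 and 24.2 FPKM, and in the TRIM24C52/55A livers it had 19.4, 25.9 and 19.5 FPKM. The 2 low TRIM24C52/55A values were almost level with WT replicate 1. On log2(FPKM + 1) this was the smallest difference of the 9, and in percent of the mean FPKM only that of *Marco* was smaller. Means of 24.1 ± 4.42 and 21.6 ± 3.74 FPKM (SD, n = 3 each) gave a log2 fold change of -0.15 (interval -0.50 to 0.21, adjusted p = 0.629, limma).

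*Cd5l* encodes a secreted scavenger receptor cysteine-rich protein, also called AIM, which macrophages release into plasma. It had the highest level of the 9, on chromosome 3 from 87357881 to 87371073. *Cd5l* was at 55.8, 74.7 and 71.3 FPKM in the WT livers and at 45.1, 60.8 and 48.2 FPKM in the TRIM24C52/55A livers. Only TRIM24C52/55A replicate 2 reached the WT range, where it exceeded WT replicate 1. Its means of 67.3 ± 10.1 and 51.4 ± 8.36 FPKM (SD, n = 3 each) differed by a log2 fold change of -0.38, and the interval of -0.71 to -0.06 left out 0 before adjustment (unadjusted p = 0.0270, adjusted p = 0.149, limma). This was the lowest fold change of the 9, and 9.60% of all genes tested were lower still.

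The general markers *Adgre1* and *Marco* had the lowest levels of the 9. *Adgre1*, an adhesion receptor in wide use as a macrophage surface marker (chromosome 17, 57358686 to 57483529), had 7.51, 10.5 and 9.39 FPKM in the WT livers and 6.86, 9.13 and 7.41 FPKM in the TRIM24C52/55A livers. Its groups overlapped through TRIM24C52/55A replicate 2, and the log2 fold change was -0.20 (interval -0.52 to 0.12, adjusted p = 0.448, limma). *Marco*, a class A scavenger receptor for bacteria and particles (chromosome 1, 120474538 to 120505024), had 2.99, 6.55 and 5.10 FPKM in the WT livers. In the TRIM24C52/55A livers it had 2.71, 8.97 and 1.74 FPKM, so that this group held both the highest and the lowest library. The coefficient of variation of *Marco* was 36.7% in WT and 87.7% in TRIM24C52/55A livers, the widest spread of the 9 in both groups. Its log2 fold change of -0.29 had an interval from -1.30 to 0.73 (adjusted p = 0.756, limma), which holds changes of either sign.

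*C1qa*, *C1qb* and *C1qc* encode the 3 chains of C1q, the recognition protein of the classical complement pathway, which in liver is made mostly by macrophages. They are neighbours on the minus strand of chromosome 4, from 136880129 (*C1qb*) to 136898803 (*C1qa*). *C1qa* was at 36.6, 44.7 and 42.8 FPKM in the WT livers and at 26.1, 45.9 and 27.8 FPKM in the TRIM24C52/55A livers. *C1qb* was at 33.2, 36.6 and 40.6 FPKM in the WT libraries and at 24.3, 40.9 and 25.6 FPKM in the TRIM24C52/55A libraries. *C1qc* was at 31.1, 37.1 and 36.9 FPKM and at 23.8, 37.4 and 24.4 FPKM, in the same order. All 3 chains were highest in TRIM24C52/55A replicate 2 and lowest in TRIM24C52/55A replicate 1. The group means went from 41.4 ± 4.26 to 33.3 ± 11.0 FPKM for *C1qa*, from 36.8 ± 3.70 to 30.3 ± 9.18 FPKM for *C1qb* and from 35.0 ± 3.39 to 28.5 ± 7.67 FPKM for *C1qc* (SD, n = 3 each), differences within the spread of the TRIM24C52/55A libraries. Log2 fold changes were -0.35, -0.31 and -0.31, with adjusted p of 0.342, 0.368 and 0.316 (limma). The balance of the chains hardly moved: of their summed FPKM, *C1qa* made up 35.2% to 37.8%, *C1qb* 30.9% to 33.7% and *C1qc* 30.1% to 32.1% over the 6 libraries.

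*Csf1r* encodes the receptor tyrosine kinase for CSF1 and IL-34, on which macrophage survival depends. It had 18.7, 22.1 and 19.8 FPKM in the WT livers and 14.4, 20.2 and 13.8 FPKM in the TRIM24C52/55A livers. TRIM24C52/55A replicate 2 exceeded WT replicates 1 and 3, and the other two libraries of its group were below all WT libraries. The means were 20.2 ± 1.73 and 16.2 ± 3.55 FPKM (SD, n = 3 each), with a log2 fold change of -0.32 (interval -0.65 to 0.01, adjusted p = 0.221, limma). The files give *Csf1r* an interval of 71.5 kb, against 31.6 kb in the annotation, and the longer one covers *Hmgxb3* on the opposite strand, which had a mean of 2.42 FPKM of its own. For the other 8 markers the files' interval is that of the annotated gene, within a few bases for *Adgre1*.

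By mean level over the 6 libraries the order was *Cd5l* (59.3 FPKM), *Clec4f* (50.4), *C1qa* (37.3), *C1qb* (33.5), *C1qc* (31.8), *Vsig4* (22.9), *Csf1r* (18.2), *Adgre1* (8.46) and *Marco* (4.68). Within libraries this order was steady, each gene exceeding the next in 6 of 6 libraries apart from *C1qb* and *C1qc*, where it did so in 5. Across libraries the ranges of neighbours overlapped for every pair except *Csf1r* and *Adgre1*. Exact permutation tests on the FPKM of single markers gave two-sided p between 0.2 (*Clec4f*, *Cd5l* and *Adgre1*) and 0.9 (*Marco*), where 0.1 is the smallest that 3 against 3 allows.

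**Figure D2:**
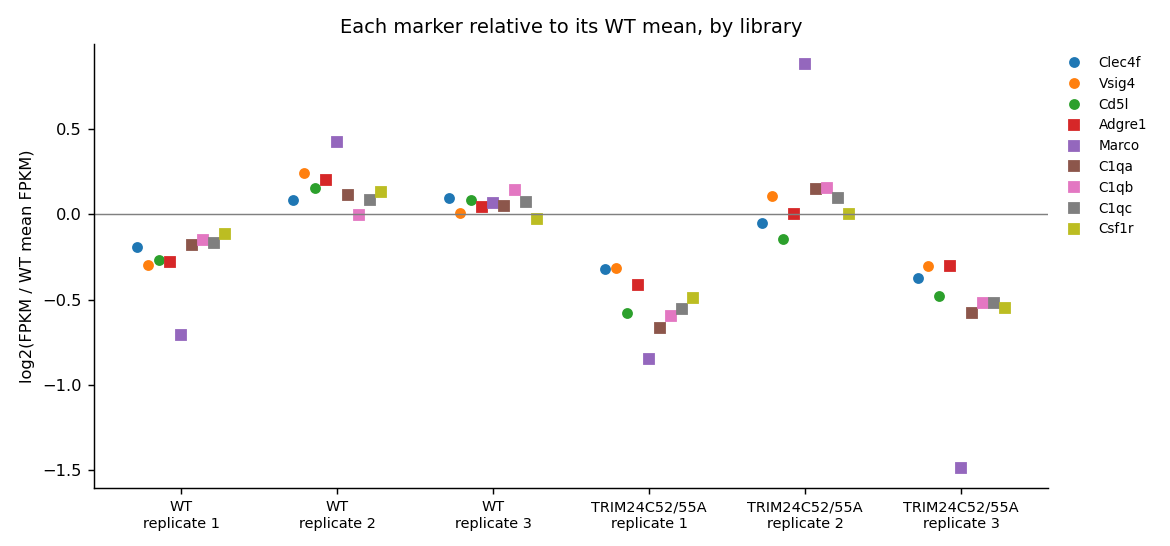
Each marker in each library as the log2 ratio of its FPKM to the mean of the WT libraries (grey line at 0), with circles for the 3 resident and squares for the 6 general markers. The 9 markers lie below 0 in WT replicate 1 and TRIM24C52/55A replicates 1 and 3, and around 0 in the other libraries, with *Marco* the farthest out in TRIM24C52/55A replicates 2 and 3.

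The markers varied together from liver to liver. Over the 6 libraries the Pearson correlation of log2(FPKM + 1) between 2 markers was 0.75 to 0.997, with a median of 0.90 over 36 pairs. The points share library and genotype, and the correlations are given as a description. The mean log2(FPKM + 1) of the 9 was 4.50, 4.89 and 4.80 in the WT livers and 4.25, 4.86 and 4.23 in the TRIM24C52/55A livers. By this mean WT replicate 2 and TRIM24C52/55A replicate 2 were the highest and lay close to each other. Outside the 9, the genes whose mean correlation with them was highest were *Rbm3*, *Hspbp1*, *Cmtm3*, *Pgam5*, *Ednrb*, *Sdc3*, *Jagn1*, *Mgat4b*, *Cfp* and *U2af1l4* (mean r of 0.94 to 0.95 over 6 libraries). With so few libraries 84 of 12216 genes had a mean r above 0.9. *Cfp*, which encodes properdin, a stabiliser of the alternative complement pathway, had 13.1, 16.5 and 16.7 FPKM in WT and 11.3, 16.1 and 10.4 FPKM in the TRIM24C52/55A livers. When group means were first subtracted, 184 genes passed 0.9, and the 10 highest were *Hmha1*, *Jagn1*, *Gm13305*, *Tmem222*, *Rbm3*, *Cmtm3*, *Mgrn1*, *Gpsm2*, *Hspbp1* and *Ncf1*, the last a subunit of the phagocyte NADPH oxidase.

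TRIM24C52/55A replicate 2 also stood apart in transcripts of fat tissue. *Adipoq*, which encodes the adipocyte hormone adiponectin, was at 4.55 FPKM in it and at no more than 0.13 FPKM in the other 5 libraries. Of the other adipocyte genes, *Plin1* was at 3.32, *Lep* at 3.98 and *Retn* at 1.59 FPKM there and at no more than 0.03 FPKM elsewhere (these 3 were chosen after their values were seen). The rest of the 8 listed genes varied. *Cfd* was at 4.17, 8.62 and 3.10 FPKM in WT and 0.11, 2.54 and 0.82 FPKM in TRIM24C52/55A livers, so that replicate 2 was the highest of its group and below all WT livers. *Lipe*, a lipase gene, was highest in replicate 2, at 7.71 FPKM against 3.17 to 4.66 FPKM elsewhere, and *Adig* was highest in TRIM24C52/55A replicate 1, at 0.44 FPKM. The summed FPKM of the 8 adipocyte list genes was 841 to 972 in WT and 490 to 1169 in TRIM24C52/55A libraries, nearly all of it *Pck1*, a gluconeogenic gene that hepatocytes also express. Of all genes tested 20.3% were highest in this library, as were 4 of the 9 markers (*Marco*, *C1qa*, *C1qb* and *C1qc*). Whether fat tissue in the sample had a part in the marker levels was not tested.

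Without TRIM24C52/55A replicate 2, 4 of the 9 markers were called lower, against 8.45% of all genes. *C1qa* had a log2 fold change of -0.60 in that fit (adjusted p = 0.0179), *C1qb* -0.54 (0.0221), *C1qc* -0.52 (0.0231) and *Csf1r* -0.49 (0.0245, all limma). Their adjusted p over 15 alternative settings lay between these values and 0.678, 0.712, 0.629 and 0.484, and no other setting called any of the 9. *Cd5l* had -0.51 (adjusted p = 0.0514), *Clec4f* -0.33 (0.0861), *Marco* -0.83 (0.0953), *Adgre1* -0.31 (0.194) and *Vsig4* -0.28 (0.253, all limma) without that library, and their highest adjusted p over the alternatives were 0.399, 0.682, 0.954, 0.759 and 0.982. The 4 genes called are all general markers. Leaving out this library removed the one TRIM24C52/55A liver with marker levels like those of WT, so these values describe the other two livers and not the genotype. Without TRIM24C52/55A replicate 3, in contrast, *Marco* had a log2 fold change of 0.10.

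**Figure D3:**
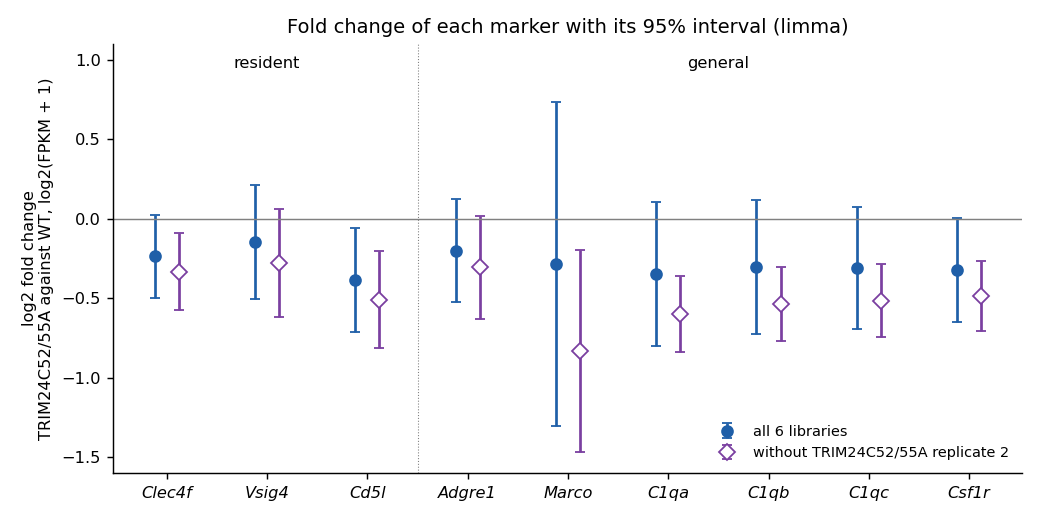
Log2 fold change of each marker, TRIM24C52/55A against WT, on log2(FPKM + 1), with 95% intervals from limma, for all 6 libraries (filled) and without TRIM24C52/55A replicate 2 (open). With all 6 libraries only the interval of *Cd5l* leaves out 0, and without that replicate those of *Vsig4* and *Adgre1* are the ones that still include it.

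Resident and general markers were then set against each other. The 3 resident markers had a median log2 fold change of -0.24 and the 6 general ones -0.31. The difference between the mean log2(FPKM + 1) of the resident and that of the general markers was 1.15, 1.17 and 1.17 in the WT livers and 1.31, 0.94 and 1.36 in the TRIM24C52/55A livers. The WT livers were within a narrow range, and the TRIM24C52/55A livers lay on both sides of it. Means were 1.16 ± 0.01 and 1.20 ± 0.23 (SD, n = 3 each), and the groups overlapped. Without *Marco* the difference was 0.80 ± 0.07 and 0.84 ± 0.13. No shift of resident against general markers was therefore seen beyond the spread of the TRIM24C52/55A livers. Within the resident markers, the ratio of *Cd5l* to *Clec4f* FPKM was 1.17, 1.29 and 1.22 in WT and 1.03, 1.16 and 1.14 in the TRIM24C52/55A livers. These groups did not overlap (1.23 ± 0.06 and 1.11 ± 0.07, SD, n = 3 each), but this ratio was picked out after its values were seen and was not tested. Each marker stayed lower in TRIM24C52/55A livers under other scalings of the libraries. The median log2 fold change of the resident and general markers was -0.30 and -0.38 with TPM, where that of all genes was -0.14. Scaling by median of ratios gave -0.14 and -0.21, and quantile normalization gave -0.09 and -0.19, where all genes had a median of 0.01 in both.

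Most further genes of Kupffer cells were not called. A list of 24 genes tied to Kupffer cell identity, all tested, had a median log2 fold change of -0.14, and 21 were lower in TRIM24C52/55A livers, where 65.5% of all genes were. Called lower were 2 of the 24, against 6.09% of all genes, and called higher were none, against 1.64%. The phagocytic receptor gene *Timd4*, a marker of long-lived Kupffer cells, had 3.00, 3.64 and 4.15 FPKM in WT and 3.18, 3.76 and 2.90 FPKM in the TRIM24C52/55A livers, groups that overlapped. Among the most highly expressed of the list, the log2 fold changes were -0.14 for *Slc40a1*, the iron exporter ferroportin, and -0.14 for *Nr1h3*, the nuclear receptor LXR alpha. They were -0.12 for *Rxra*, the partner receptor of LXR, and -0.72 for *Hpgd*, which degrades prostaglandins (adjusted p = 0.0948, limma), and none of these 4 passed the test. Of the genes called, *Pltp*, the plasma phospholipid transfer protein, had 62.2, 56.3 and 47.4 FPKM in WT and 13.4, 20.8 and 18.5 FPKM in the TRIM24C52/55A livers. It fell by 1.61 on the log2 scale (standard error 0.16, adjusted p = 0.00178, limma), far more than any of the 9 markers. *Pltp*, *Rxra*, *Nr1h3* and *Hpgd* are also expressed outside macrophages.

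Of 21 pan-macrophage genes tested, 2 were called lower, against 6.09% of all genes, and none higher. The median log2 fold change was -0.28, close to that of the 9 markers. The 2 called were *Laptm5*, a lysosomal membrane protein of blood cells, at 16.3, 19.1 and 19.6 FPKM in WT and 9.998, 13.5 and 11.3 FPKM in the TRIM24C52/55A livers (log2 fold change -0.62, adjusted p = 0.0224, limma), and *Ncf4*, an NADPH oxidase subunit (-0.59, adjusted p = 0.0355, limma). *Lyz2*, the lysozyme of myeloid cells, had a log2 fold change of -0.29 (adjusted p = 0.373), and *Ctss*, the lysosomal protease cathepsin S, of -0.36 (adjusted p = 0.122, both limma), neither past the threshold. Without TRIM24C52/55A replicate 2, 9 of the 21 were called lower, against 8.45% of all genes. Among 12 genes for CSF1R ligands and niche signals none was called in either direction, where 6.09% of all genes were called lower and 1.64% higher. In a list this short those shares could also give no call. *Csf1*, a ligand of CSF1R, had 3.10, 3.18 and 3.32 FPKM in WT and 2.46, 3.24 and 2.07 FPKM in the TRIM24C52/55A livers. *Il34*, the other ligand, had 2.57, 2.41 and 2.05 FPKM in WT and 0.94, 2.86 and 2.64 FPKM in the TRIM24C52/55A livers. Both ligands overlapped between the groups.

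Some genes of monocyte-derived and lipid-associated macrophages were called lower and most were not. Called lower were 2 of 6 monocyte-derived and 3 of 11 lipid-associated genes tested, against 6.09% of all genes, and none was called higher. All 6 and 9 of the 11 had negative log2 fold changes (65.5% of all genes did), with medians of -0.28 and -0.33. The monocyte-derived genes called were *Ly6c2*, a surface protein of inflammatory monocytes, with a log2 fold change of -0.73 (adjusted p = 0.0107), and *Ear2*, an eosinophil-associated ribonuclease gene, with -0.52 (adjusted p = 0.0432, both limma). *Ly6c2* was low, at 1.43 to 1.99 FPKM in WT and 0.58 to 0.73 FPKM in TRIM24C52/55A livers. Among the lipid-associated genes called, *Clec7a*, the beta-glucan receptor dectin-1, had -0.77 (adjusted p = 0.0339), and the lysosomal cathepsin genes *Ctsd* and *Ctsb* had -0.56 (adjusted p = 0.00672) and -0.33 (adjusted p = 0.0349, all limma). *Ctsd*, at 171 to 180 FPKM in WT and 109 to 126 FPKM in TRIM24C52/55A livers, is expressed by most cell types, and the files give it and *Ctsb* intervals of 62.2 and 55.3 kb, against 12.1 and 23.5 kb in the annotation. *Spp1* (osteopontin), also made by bile duct cells, had a log2 fold change of -0.58 and did not pass the test (adjusted p = 0.192, limma). *Trem2*, the receptor that defines lipid-associated macrophages, was at 1.02 to 1.88 FPKM in WT and 0.41 to 1.36 FPKM in TRIM24C52/55A livers, which overlapped, and was not called (adjusted p = 0.395, limma). The lipid-handling genes *Lpl* and *Fabp5* had positive log2 fold changes, 0.50 and 0.41, and were not called (adjusted p of 0.562 and 0.598, limma). *Lpl* was at 2.08, 9.62 and 2.37 FPKM in the TRIM24C52/55A livers. Without replicate 2 of that group the log2 fold changes were -0.07 for *Lpl* and 0.14 for *Fabp5*.

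The MHC class II genes had larger fold changes than the 9 markers. They were measured here within a list of dendritic cell genes, of which 7 were tested and 3 called lower (6.09% of all genes were). The list's median log2 fold change of -0.84 came from its 4 class II genes, since the other tested genes *Clec9a*, *Zbtb46* and *Batf3* had -0.04, -0.06 and -0.35 and were not called (adjusted p of 0.875, 0.753 and 0.317, limma). MHC class II presents peptides to T cells and is carried by dendritic cells, B cells and macrophages, Kupffer cells included. *Cd74*, the invariant chain, had 82.9, 86.1 and 86.3 FPKM in WT and 35.3, 66.1 and 36.4 FPKM in the TRIM24C52/55A livers. *H2-Aa* had 35.4, 35.8 and 34.4 FPKM in WT and 14.1, 24.1 and 15.04 FPKM in the TRIM24C52/55A livers. Neither gene overlapped between the groups, although TRIM24C52/55A replicate 2 was again the nearest to WT. Log2 fold changes were -0.94 for *Cd74* (adjusted p = 0.0349), -0.99 for *H2-Aa* (adjusted p = 0.0159) and -0.998 for *H2-Eb1* (adjusted p = 0.0264, all limma), and that of *H2-Ab1*, -0.84, did not pass (adjusted p = 0.0826, limma). The dendritic cell genes *Flt3* and *Xcr1* were at 0.22 FPKM or less in every library and were not tested. Class II transcripts of B cells and of macrophages were not separated, and of 4 B and plasma cell genes tested none was called, with a median of -0.40.

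**Figure D4:**
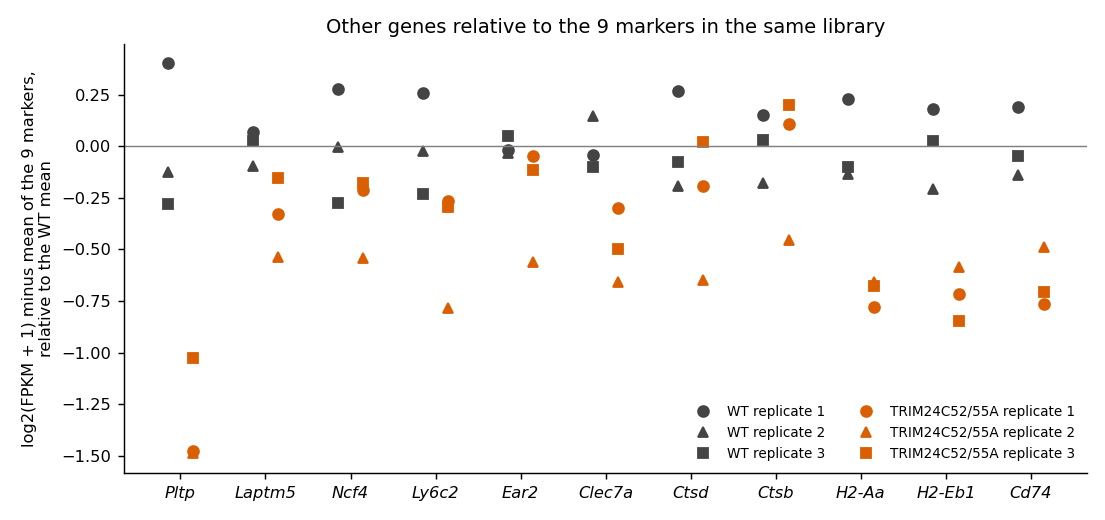
Shown are 11 genes called in the lists of Kupffer cell identity, pan-macrophage, monocyte-derived, lipid-associated macrophage and dendritic cell genes, as log2(FPKM + 1) minus the mean of the 9 markers in the same library, set to 0 at the WT mean. *Pltp* and the class II genes have the lowest means in TRIM24C52/55A libraries (orange), whereas *Ncf4*, *Ctsd* and *Ctsb* overlap with WT (grey).

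Set against the mean of the 9 markers in the same library, 8 of these 11 called genes were lower in every TRIM24C52/55A library than in every WT library. Of all genes tested, 1.69% were. The 11 had been selected by their own fold change, so this share is a description. Relative to the markers, the log2 difference between the groups was -1.33 for *Pltp*, -0.71 for *H2-Aa*, -0.72 for *H2-Eb1* and -0.65 for *Cd74*. For *Ctsb* it was -0.05 and for *Lyz2* -0.01, which places these genes level with the markers.

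Inflammatory genes made by activated macrophages and other cells included 3 called lower of 14 tested, against 6.09% of all genes, with a median of -0.34. Their levels ranged widely, up to *Arg1* at 658 to 707 FPKM in WT and 570 to 653 FPKM in TRIM24C52/55A livers. *Arg1* had a log2 fold change of -0.15 and was not called. *Cxcl10*, a chemokine induced by interferon, had 7.01, 6.43 and 6.54 FPKM in WT and 2.22, 2.42 and 1.29 FPKM in the TRIM24C52/55A livers (log2 fold change -1.38, adjusted p = 0.00273, limma). *Cxcl9*, a related chemokine, had -1.08 (adjusted p = 0.0243), and *Ccl2*, which recruits monocytes, had -0.72 (adjusted p = 0.0331, both limma). The files give *Cxcl10* an interval of 82.8 kb, against 2.25 kb in the annotation, and *Ccl2* one of 10.3 kb, against 1.88 kb. *Il18*, a cytokine of the inflammasome pathway, was at 8.85 to 10.7 FPKM in WT and 8.34 to 11.0 FPKM in TRIM24C52/55A livers, with overlapping groups.

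Complement genes around C1q were partly higher in TRIM24C52/55A livers. The list of 16 partner genes holds plasma components, which hepatocytes mostly express, and receptors of leukocytes and endothelium. Of the 16, 6 were called higher, against 1.64% of all genes, and none lower, with a median log2 fold change of 0.16. *C1ra*, a protease of the complex that C1q forms, had 69.6, 74.8 and 73.4 FPKM in WT and 104, 114 and 94.5 FPKM in the TRIM24C52/55A livers (log2 fold change 0.51, adjusted p = 0.0138, limma). *Serping1*, the inhibitor of that complex, had a log2 fold change of 0.39 (adjusted p = 0.0177), and *C2*, its substrate, of 0.54 (adjusted p = 0.0281, both limma). *C4a* rose by 1.16 and *C1rb* by 0.45 on the same scale (adjusted p of 0.00964 and 0.0251, limma). *C4a* and *C4b*, and *C1ra* and *C1rb*, are close copies between which fragments may have been split, and *C4b* had a log2 fold change of -0.04. *C3*, the central component, had a log2 fold change of 0.14 and was not called (adjusted p = 0.548, limma). Among the receptors none was called, with log2 fold changes of 0.00 for *C3ar1*, -0.41 for *C5ar1*, -0.33 for *Itgb2* and -0.08 for *Cd93*. The C1q chains, none of which was called, and the proteases that bind them thus had fold changes of opposite sign in the same livers, and that difference was not tested.

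Markers of other cell types were read for comparison. Of 8 hepatocyte genes 1 was called, *Cps1* of the urea cycle (log2 fold change 0.63, adjusted p = 0.0281, limma), and of 12 sinusoidal endothelial genes 1, *Lyve1*, a hyaluronan receptor (-1.26, adjusted p = 0.0281, limma). The medians of these lists were 0.09 and -0.05, and 1.64% of all genes were called higher and 6.09% lower. None was called among 12 stellate cell and fibroblast genes (median -0.05), 4 bile duct genes (-0.07), 2 neutrophil genes (-0.67), 5 erythroid genes (-0.82) or 6 adipocyte genes (0.51). In the list of T and NK cell genes 1 of 4 was called, *Cd4*, the T helper cell coreceptor, which rose by 1.11 (adjusted p = 0.00108, limma). The other 3 had negative log2 fold changes that were not called, -0.27 for *Trbc2*, -0.11 for *Nkg7* and -0.39 for *Il2rb*, and the median of the list was -0.19. *Cd4* had 0.39, 0.41 and 0.35 FPKM in WT and 1.97, 1.87 and 2.12 FPKM in the TRIM24C52/55A livers, while the T cell receptor genes *Cd3d* and *Cd3e* were under 0.88 FPKM in all libraries. Erythroid genes were highest in WT replicate 1, with a summed FPKM of 1800 against 522 to 939 in the other 5 libraries.

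**Figure D5:**
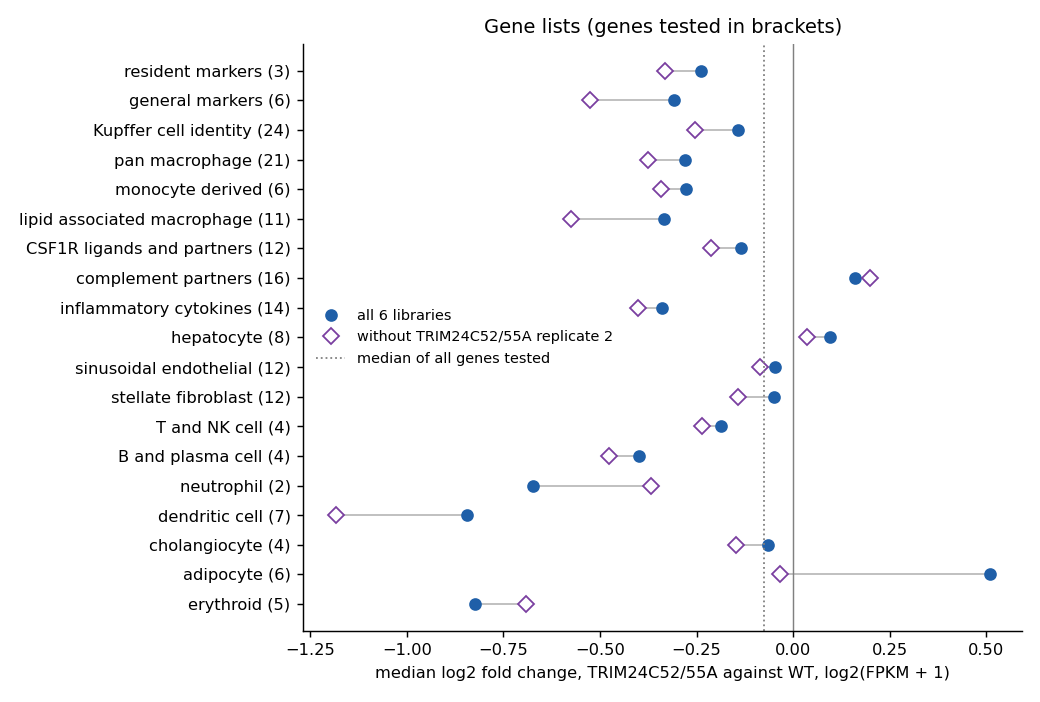
Median log2 fold change of the genes tested in each list, TRIM24C52/55A against WT, for all 6 libraries (filled) and without TRIM24C52/55A replicate 2 (open), with the median of all genes as a dotted line. With all 6 libraries the lists of macrophage genes lie left of the dotted line. So do those of dendritic, T and NK, B and plasma, neutrophil, erythroid, inflammatory and CSF1R partner genes. Complement partners and hepatocytes lie to its right, and adipocyte genes move from 0.51 to -0.04 when that replicate is left out.

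The lists held 24 genes called. Of these, 6 were called under every alternative setting that was run (*Pltp*, *Ly6c2*, *Ctsd*, *C4a*, *Cxcl10* and *Cd4*). The other 18, which include the class II genes called, lost the call both without TRIM24C52/55A replicate 1 (adjusted p of 0.0510 to 0.129) and without WT replicate 3 (0.0537 to 0.167, both limma). Without WT replicate 1, WT replicate 2 or TRIM24C52/55A replicate 3, the call was lost by 14, 16 and 11 genes, and without TRIM24C52/55A replicate 2 by 1. It was lost by 16 with no filter on low values, by 8 with a replicate block, by 6 each with median-of-ratios scaling and quantile normalization, and by at most 3 in the other settings. All 24 kept their direction in every setting.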

How the data were processed

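RNA of whole liver from 3 WT and 3 TRIM24C52/55A mice on the HFD was sequenced, with 1 library per mouse, and libraries were grouped by the genotype in their labels. What the authors deposited is a table for each mouse with the FPKM of every gene. Beyond a general statement that t-tests or ANOVA were used, the study's text names no test for these data. The submitters' processing notes list bcl2fastq, Salmon 0.14.0, DESeq2 1.30.0 and GRCm38 without their roles. Alignment settings and annotation are not given in the sources used here. FPKM can hide a shift in the total RNA per cell, and library sums were not rescaled in the main analysis.

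Markers were found by gene name. Values were tested as log2(FPKM + 1), a pseudocount of 1, over the 12225 genes whose mean reached 0.5 FPKM. The linear models of limma 3.58.1 were used, under R 4.3.3 (lmFit, trended eBayes, Benjamini-Hochberg adjustment, threshold 0.05). The fit had no covariates. Single markers also had an exact two-sided permutation test on FPKM. The lists, 17 with 221 genes, were written from general knowledge. The markers, lists and tests were chosen with earlier results of these data known. Named were all 9 markers, in each list the genes called (at most 8) and the 4 of highest mean level, and the 10 genes most correlated with the markers. *Timd4*, *Csf1*, *Il34*, *Trem2*, *Lpl*, *Fabp5*, *C3ar1*, *C5ar1*, *Itgb2*, *Cd93*, *C4b*, *Flt3*, *Xcr1*, *Clec9a*, *Zbtb46*, *Batf3*, *Adig*, *Cd3d*, *Cd3e*, *Plin1*, *Lep* and *Retn* were named after their values were seen. Of the genes that rule names, only those that bear on the markers are given with values, and some called genes that the counts include are not reported here. Alternatives were another pseudocount and filters, scaling by TPM, quantiles or median of ratios, untrended and robust variance moderation, a replicate block, and leaving out each library. On simulated data with 12225 genes, limma recovered 84.5% of 97 genes changed 2-fold and 99% of 103 changed 4-fold, with 4 false calls. The simulated noise was independent between genes, and the changes were larger than those of the 9 markers. These rates therefore do not give the power for the markers. Promoters were read from a RefSeq table. Other steps used Python 3.11.15, numpy 2.4.6, pandas 2.3.3, scipy 1.17.1 and matplotlib 3.10.9. The knockin changes codons, so *Trim24* FPKM cannot check the labels. Replicates are separate mice, and p-values measure the spread between them.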

Additional observations from a re-analysis of the deposited data

How the results depend on the processing

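Over 15 alternative settings the 9 markers had 135 fits, of which 134 were lower in TRIM24C52/55A livers. The exception was *Marco* without TRIM24C52/55A replicate 3, at 0.10. Markers called lower numbered 0 in all settings but one, and 0 to 4 when 1 library was left out, the 4 being without TRIM24C52/55A replicate 2, where *Marco* had a log2 fold change of -0.83. Of all genes tested 744 were called lower and 200 higher. The genes lower numbered 252 with no filter on low values (95 higher), 1358 with TPM (197 higher), 406 with median-of-ratios scaling (250 higher) and 378 with quantile normalization (255 higher). When 1 library was left out they numbered 202 to 1033 lower and 88 to 239 higher, with the fewest lower without TRIM24C52/55A replicate 1 and the most without replicate 2 of that group. The cause of these changes was not tested. With a replicate block 422 genes were called lower and 156 higher, and 0 of the 9 markers were called. The labels share replicate numbers between groups, but same-numbered mice are different animals. Their deviations from the group means correlated by -0.12, -0.10 and 0.00, and those of differently numbered mice by -0.05 to 0.14. With 3 libraries per group these correlations cannot decide whether the numbers pair the libraries. Of the markers, *Marco* had the fewest fragments, an estimated 53.4 in its lowest library.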
